A study of Mus musculus with 12 samples.

Results

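Transcripts of lung epithelial cells were followed in Pdgfra+ cells sorted from mouse lung. The set comprised 10 of the 40760 genes in the count table: the surfactant protein genes Sftpa1, Sftpb, Sftpc and Sftpd, the alveolar type 2 marker Lamp3, the secretoglobin genes Scgb1a1, Scgb3a1 and Scgb3a2, the airway defence gene Bpifa1, and Epcam, which encodes the epithelial surface protein CD326. They were taken by name, and all 10 passed the filter on low counts. Of these, 9 were chosen as known epithelial genes and Bpifa1 was chosen by its measured values, a large fall from WT bleo to Pear1-/- bleo. Its bleo values are thus a description and carry no test. The 9 were tested, but they too were chosen with earlier results of these data known. Alveolar type 2 cells make surfactant, the lipid and protein film that keeps alveoli open, and store it in lamellar bodies before secretion. Club cells of the conducting airways release secretoglobins, small proteins that line the airway surface. Fibroblasts, the cells that Pdgfra is used to sort, are not the usual source of these transcripts.

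The study asked how loss of Pear1, a receptor of fibroblasts and platelets, alters the lung response to bleomycin (bleo), an agent that injures the epithelium and is followed by fibrosis. The 12 libraries fell into 4 groups of 3, namely the vehicle groups (WT, then Pear1-/-) and the bleo groups (WT, then Pear1-/-), listed in this order whenever 4 values are given, all from lungs of male mice. The study's methods give a C57BL/6 background and an age of 8 to 12 weeks for its mice in general. The Pear1-/- allele was made by a gene-trap cassette placed between exons 6 and 7, in every cell of the animal. In its flow cytometry the study took Pdgfra+ mesenchymal cells as negative for CD326, CD31 and CD45. Its methods state no such gate for the cells sequenced here. The labels name a Cd140a (Pdgfra) sort and no gate against CD326, CD31 or CD45. They state neither the bleo dose and day for these libraries nor whether each library came from a separate animal, so the p-values below measure only the spread between these libraries.

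Between 6702948 and 10447101 reads were counted per library. Pear1 stood at 61.6 ± 3.17 CPM in WT vehicle (counts per 1000000 reads counted, mean ± SD of 3 libraries, as below) and at 58.3 ± 2.75 in the vehicle libraries labelled Pear1-/-, a log2 fold change of -0.08 (adjusted p = 0.470). In the bleo groups Pear1 stood at 28.8 ± 1.64 CPM in WT and higher, at 40.2 ± 1.73, under the Pear1-/- label (log2 fold change 0.48, adjusted p = 0.000120). The counts thus do not show loss of Pear1 in libraries labelled Pear1-/-, and the genotype is given below as labelled. A whole-gene count does not separate the exons before the cassette from those after it. WT vehicle replicate 2 stood apart from replicates 1 and 3 of its group, with a chi-square per degree of freedom of 21.2 and 21.8, against 1.73 to 2.67 towards the 3 libraries labelled Pear1-/- vehicle. The other pairs within a group gave 1.35 to 4.82. Whether this or any other library carries the label of another group cannot be settled from the counts, and every direction between genotypes rests on the labels. Values of the 10 genes and counts of gene lists that use WT vehicle are therefore also given without that library. Pdgfra averaged 514, 467, 154 and 269 CPM in the 4 groups. A list of 19 leukocyte genes (without Itgam, whose symbol stood on 2 rows of the table) summed to 3717 to 5985, 5848 to 6550, 17213 to 17525 and 8149 to 8384 CPM, with none of the 19 at 0 in any group.

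The sequences before the starts of 3 type 2 cell genes are given beside those of Bpifa1 and Epcam, whose values followed other patterns. Of the 10 genes, 6 were matched in the RefSeq promoter table (GRCm38.p6), and 250 bases before the start are given here for 5 of them. The regions are chr14:41131538-41131787 (plus strand) for Sftpa1, chr6:72304360-72304609 (plus strand) for Sftpb, chr16:19706366-19706615 (minus strand) for Lamp3, chr2:154142630-154142879 (plus strand) for Bpifa1 and chr17:87635729-87635978 (plus strand) for Epcam. Capitals mark matches, on either strand, to CTCAAG (the core of the NKX2-1 site), TGTTTAC and TGTTTGC (forkhead sites) or TATAAA (the TATA box).
Sftpa1: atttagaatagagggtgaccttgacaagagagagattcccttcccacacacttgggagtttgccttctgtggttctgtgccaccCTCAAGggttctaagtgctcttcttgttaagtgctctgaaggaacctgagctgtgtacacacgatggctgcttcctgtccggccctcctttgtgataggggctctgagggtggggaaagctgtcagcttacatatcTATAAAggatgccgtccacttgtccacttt
Sftpb: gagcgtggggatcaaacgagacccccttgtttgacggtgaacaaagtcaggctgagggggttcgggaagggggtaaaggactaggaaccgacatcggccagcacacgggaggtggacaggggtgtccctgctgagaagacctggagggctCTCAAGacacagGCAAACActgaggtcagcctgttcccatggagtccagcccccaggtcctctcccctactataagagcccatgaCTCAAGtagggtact
Lamp3: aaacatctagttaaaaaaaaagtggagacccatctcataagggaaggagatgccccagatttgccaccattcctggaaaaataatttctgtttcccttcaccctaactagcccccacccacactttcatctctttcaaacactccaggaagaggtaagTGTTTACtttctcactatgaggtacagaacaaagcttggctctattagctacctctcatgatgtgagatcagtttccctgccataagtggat
Bpifa1: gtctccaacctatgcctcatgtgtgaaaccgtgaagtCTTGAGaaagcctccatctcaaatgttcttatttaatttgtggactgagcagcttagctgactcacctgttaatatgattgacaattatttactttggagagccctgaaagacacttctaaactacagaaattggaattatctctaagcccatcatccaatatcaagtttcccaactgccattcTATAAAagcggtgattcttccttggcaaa
Epcam: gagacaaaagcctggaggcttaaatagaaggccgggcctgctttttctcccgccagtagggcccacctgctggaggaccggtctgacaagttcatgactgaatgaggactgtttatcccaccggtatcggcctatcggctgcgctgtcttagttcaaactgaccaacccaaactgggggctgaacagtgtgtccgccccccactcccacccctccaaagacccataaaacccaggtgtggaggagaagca
Sftpa1 held CTCAAG 166 bases and TATAAA 30 bases before its start. Sftpb held CTCAAG at 100 and at 15 bases, with the reverse of TGTTTGC between them at 88 bases. Lamp3 held TGTTTAC at 92 bases. The promoter of Scgb3a1, the sixth gene matched, held the reverse of CTCAAG at 172 bases and the reverse of TGTTTGC at 55 bases. Bpifa1 held the reverse of CTCAAG at 213 bases and TATAAA at 29 bases, and Epcam held none of the 4 motifs. No match overlapped another. Among 32851 promoters of the same length, 13.3% held CTCAAG, 12.4% TATAAA, 4.30% TGTTTGC and 3.17% TGTTTAC on either strand, so such matches are common and are given as a description. No motif was found in all 3 type 2 cell genes shown, and Bpifa1 held the same 2 motifs as Sftpa1. No promoter is shown for Sftpc, Sftpd, Scgb1a1 and Scgb3a2.

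The genes differed widely in abundance, and the order at the top was the same in every group. Levels between genes were compared as CPM per kilobase of exon sequence in the GENCODE M21 annotation (GRCm38). Scgb1a1 (chr19:9083636-9087958, minus strand), which encodes the main secretory protein of club cells, was the most abundant per kilobase with 5980 ± 1771 CPM per kilobase in WT vehicle and 787 ± 11.3 in Pear1-/- bleo. Sftpc (chr14:70520949-70524081, minus strand), a marker of alveolar type 2 cells, came next with 1639 ± 195 and 175 ± 3.91. Sftpb and Sftpa1 followed in each group, and their libraries overlapped in WT vehicle. The genes low in the order changed places between groups. Bpifa1 (chr2:154142880-154149219, plus strand) ranked 10 of 10 in both vehicle groups with 1.77 ± 1.33 and 0.411 ± 0.140 CPM per kilobase, 5 in WT bleo with 37.2 ± 2.18, and 9 in Pear1-/- bleo with 1.94 ± 0.459. Epcam (chr17:87635979-87651129, plus strand) ranked 9 in WT vehicle with 7.67 ± 1.25 and 6 in Pear1-/- bleo with 8.03 ± 0.359. Neighbours whose libraries overlapped were Lamp3 and Epcam in both vehicle groups, and, in WT bleo, Sftpd with Scgb3a2 and Scgb3a1 with Epcam. No other annotated gene overlapped any of the 10. The plot of CPM by library shows all 10 genes.

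**Figure D1:**
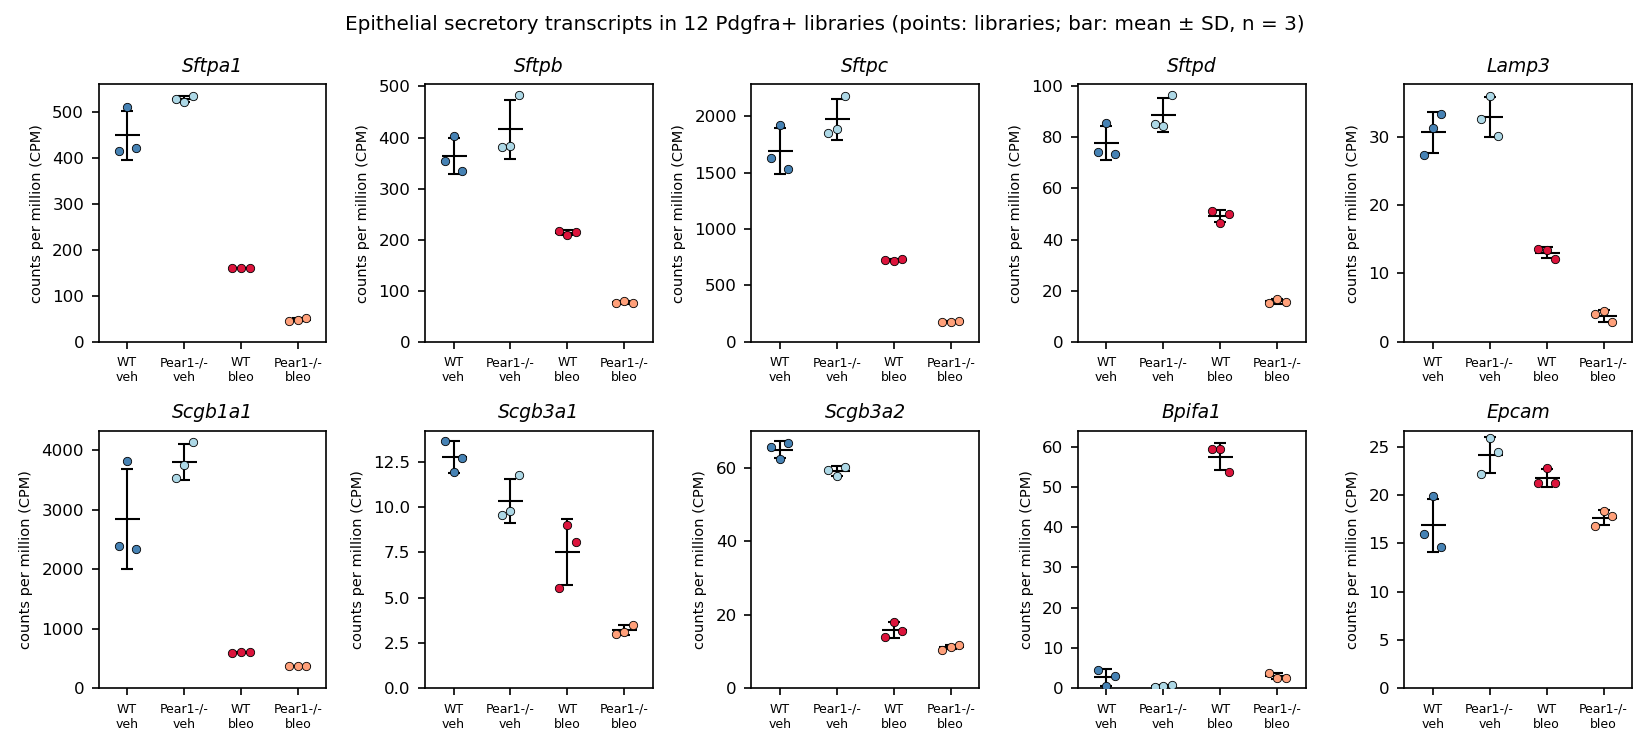
CPM of each gene (linear y axes from 0, a different range in each panel) in the 12 libraries, by group on the x axis; points are libraries and the bar is the mean ± SD (n = 3). Sftpc fell from 1531 to 1920 CPM in WT vehicle to 178 to 186 CPM in Pear1-/- bleo, while Bpifa1 was high in WT bleo alone (53.6 to 59.5 CPM).

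Bleo lowered the surfactant protein transcripts in WT libraries. Sftpa1 (chr14:41131782-41136452, plus strand), a collectin that binds microbes in the alveolar lining, was at 416, 511 and 423 CPM in WT vehicle and at 161, 161 and 161 CPM in WT bleo. Sftpc, the hydrophobic protein that helps spread the surfactant film, was at 1632, 1920 and 1531 CPM in WT vehicle and at 722, 718 and 738 CPM in WT bleo. The bleo libraries lay close together and below every vehicle library for both genes. Their log2 fold changes were -1.48 for Sftpa1 (adjusted p = 5.35e-10, standard error, SE, 0.083) and -1.22 for Sftpc (4.23e-09, SE 0.082), in edgeR's quasi-likelihood test with adjustment over all 17418 genes tested.

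The other alveolar transcripts fell as well, with log2 fold changes from -1.23 to -0.66. Sftpb (chr6:72304610-72314371, plus strand), without which lamellar bodies do not form properly, averaged 364 ± 34.9 CPM in WT vehicle and 214 ± 4.87 in WT bleo, with a log2 fold change of -0.77 (adjusted p = 4.15e-06). Sftpd (chr14:41172214-41185149, minus strand), the second lung collectin, averaged 77.7 ± 6.71 and 49.1 ± 2.42 CPM, with a log2 fold change of -0.66 (adjusted p = 5.56e-06). Lamp3 (chr16:19653378-19706375, minus strand), a membrane protein of lamellar bodies that mature dendritic cells also make, stood at 27.3, 31.3 and 33.3 CPM in WT vehicle and at 13.5, 13.4 and 12.1 CPM in WT bleo. Its log2 fold change was -1.23 (SE 0.122, adjusted p = 3.74e-07). In these bulk samples fewer cells of a type and less RNA per cell cannot be told apart.

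Among the airway genes Scgb1a1 and Scgb3a2 had the most negative fold changes of the 9 genes tested. Scgb1a1 was at 2387, 3820 and 2333 CPM in WT vehicle and at 592, 608 and 614 CPM in WT bleo. WT vehicle replicate 2 was the highest of its group, and the bleo libraries were all lower than any vehicle library. The log2 fold change was -2.24 (SE 0.142, adjusted p = 2.15e-09), a fall of 4.71-fold. Scgb3a2, a secretoglobin that marks distal airway secretory cells, averaged 65.0 ± 2.26 CPM in WT vehicle and 15.9 ± 2.12 in WT bleo, a log2 fold change of -2.03 (adjusted p = 3.81e-11). Scgb3a1 (chr11:49663610-49665118, plus strand), a secretoglobin of the larger airways, averaged 12.8 ± 0.867 and 7.54 ± 1.81 CPM, a log2 fold change of -0.76 (adjusted p = 0.000941).

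Epcam was the one gene of the 9 tested that was higher in WT bleo. It was at 16.0, 19.9 and 14.6 CPM in WT vehicle and at 21.2, 22.8 and 21.2 CPM in WT bleo. The groups did not overlap, but the gap was small, with a log2 fold change of 0.36 (SE 0.113, adjusted p = 0.0105). This call was lost without WT vehicle replicate 3 (adjusted p = 0.0574) and in a fit of the 2 groups alone (0.0516).

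Of the 9 genes tested, 8 fell and 1 rose in WT bleo, where 68.0% of all genes tested passed the same test (36.6% lower and 31.4% higher). A fall of more than 2-fold was found for 5 of the 9, against 23.5% of all genes tested. The median log2 fold change of the 9 was -1.22, beside -0.07 over all genes. The libraries of both groups did not overlap for any of the 9 genes (8 lower and 1 higher in bleo), as was so for 68.8% of all genes tested. Without WT vehicle replicate 2 all 9 passed in the same direction, from -1.99 for Scgb3a2 to 0.57 for Epcam. Scgb1a1 was then at -1.90 and Sftpc at -1.06. In that fit 31.7% of all genes tested were higher and 44.7% lower. Lists of other cell types moved in the same libraries. Of the 19 leukocyte genes 13 were higher and 4 lower (15 and 3 without WT vehicle replicate 2). Of 12 endothelial genes 0 were higher and 10 lower, and of 12 mesenchymal genes 3 were higher and 9 lower, with or without that library. The part of other cell types in these falls was not tested.

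In libraries labelled Pear1-/-, bleo was accompanied by deeper falls of the same genes. Sftpc was at 1853, 1885 and 2183 CPM in Pear1-/- vehicle and at 179, 178 and 186 CPM in Pear1-/- bleo. Sftpa1 was at 528, 524 and 537 CPM against 45.0, 48.3 and 51.9 CPM. Scgb1a1 was at 3538, 3757 and 4135 CPM against 381, 374 and 370 CPM. Every bleo library lay far below every vehicle library for these 3 genes, with fitted falls, in times, of 10.9 for Sftpc, 10.9 for Sftpa1 and 10.2 for Scgb1a1. Their log2 fold changes were -3.45 (SE 0.089, adjusted p = 2.20e-13), -3.45 (SE 0.090, 2.20e-13) and -3.35 (SE 0.148, 5.59e-11).

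Lamp3 averaged 32.9 ± 2.92 CPM in Pear1-/- vehicle and 3.82 ± 0.855 in Pear1-/- bleo, a log2 fold change of -3.10 (adjusted p = 8.44e-11). Sftpb fell from 416 ± 58.3 to 77.7 ± 2.78 CPM (-2.42, adjusted p = 2.35e-11). Sftpd fell from 88.7 ± 6.81 to 15.8 ± 0.929 CPM (-2.48, adjusted p = 7.88e-12). The fitted falls of these 3 genes were 8.56-fold, 5.35-fold and 5.60-fold. With limma on variance-stabilised (VST) values the log2 fold changes were -2.16, -2.34 and -2.16 in the same order, so whether Lamp3 fell further than Sftpb and Sftpd depended on the method, and no test was made between genes. Scgb3a2 fell from 59.2 ± 1.34 to 11.2 ± 0.605 CPM (-2.40, adjusted p = 1.24e-11). Scgb3a1 fell from 10.4 ± 1.22 to 3.21 ± 0.271 CPM (-1.69, adjusted p = 2.05e-06). Epcam was the gene that moved least, at 22.2, 25.9 and 24.4 CPM in Pear1-/- vehicle and 16.8, 18.3 and 17.8 CPM in Pear1-/- bleo, with a log2 fold change of -0.45 (SE 0.109, adjusted p = 0.00204).

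All 9 genes tested were lower, where 62.3% of all genes tested passed the test (33.4% lower), and 8 of the 9 fell by more than 2-fold, against 19.4% of all genes tested. Their median log2 fold change was -2.48, beside -0.05 over all genes. The libraries did not overlap for any of the 9 genes, all 9 being lower in bleo, as was so for 70.9% of all genes tested. In these libraries 9 of the 19 leukocyte genes were higher and 7 lower, and Ptprc (CD45) was at 428 CPM in vehicle and 379 CPM in bleo (log2 fold change -0.18, adjusted p = 0.0846). Of the 12 endothelial genes 0 were higher and 10 lower, and of the 12 mesenchymal genes 4 were higher and 7 lower.

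The bleo effect differed between the genotypes as labelled for all 9 genes tested, each with a more negative change in libraries labelled Pear1-/-; 37.0% of all genes tested passed this interaction test (19.1% in the negative direction). The difference in log2 fold change was -2.22 for Sftpc (95% confidence interval -2.47 to -1.98, adjusted p = 7.40e-09) and -1.97 for Sftpa1 (-2.22 to -1.72, 2.12e-08). It was -1.86 for Lamp3, -1.82 for Sftpd and -1.65 for Sftpb, so the 5 alveolar genes lay between -2.22 and -1.65. The airway secretoglobins lay lower in size, at -1.11 for Scgb1a1 (adjusted p = 0.000391), -0.92 for Scgb3a1 (0.0110) and -0.37 for Scgb3a2 (-0.65 to -0.09, 0.0366). For Epcam it was -0.82 (adjusted p = 0.000913), its change being positive in WT and negative under the Pear1-/- label. The intervals of the 5 alveolar genes did not reach those of Scgb3a2 or Epcam, whereas those of Scgb1a1 (-1.52 to -0.70) and Scgb3a1 (-1.47 to -0.38) overlapped those of Sftpb (-1.94 to -1.37) and Lamp3 (-2.27 to -1.45). With limma the differences were -1.17 for Lamp3, -1.12 for Scgb1a1 and -0.43 for Scgb3a1, so Lamp3 then lay beside Scgb1a1. The difference between genes was not itself tested. Without WT vehicle replicate 2 all 9 passed, from -2.41 for Sftpc to -0.43 for Scgb3a2. In that fit more of all genes tested passed too, 20.4% in the positive and 26.0% in the negative direction. The interaction of Scgb3a2 lost its call under 7 of 18 other settings, with an adjusted p of up to 0.131. The same test was negative for 16 of the 19 leukocyte genes (all 19 without WT vehicle replicate 2), Ptprc among them (-1.40, adjusted p = 7.85e-07), and the part of other cell types in the epithelial values was not tested.

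**Figure D2:**
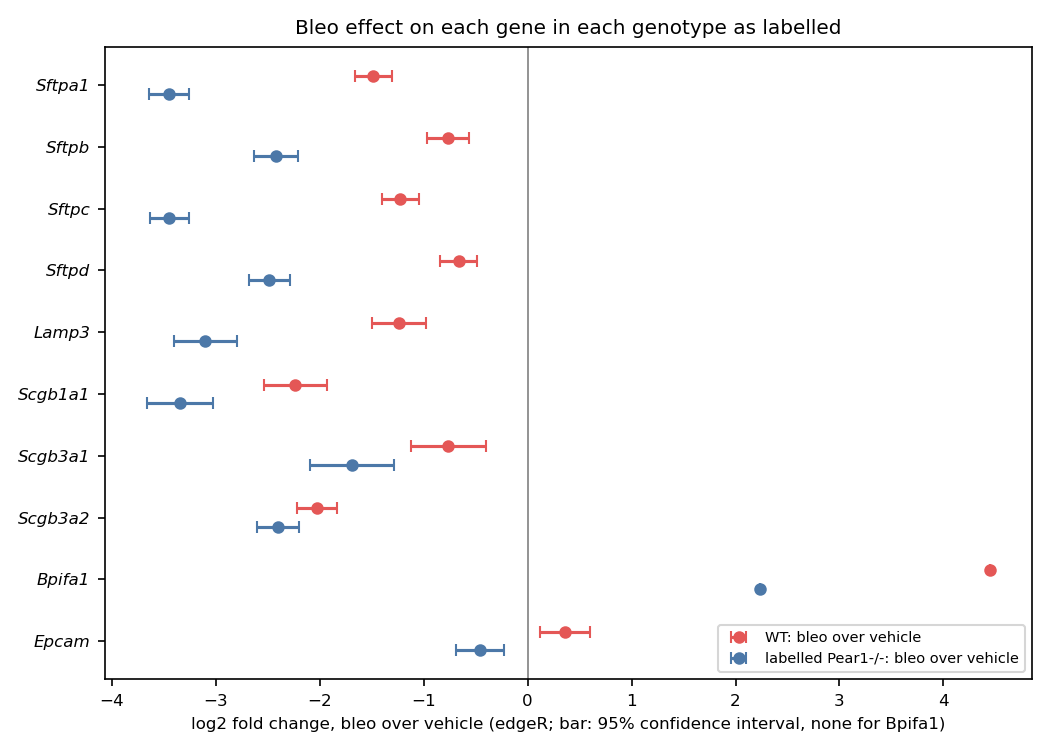
Log2 fold change of bleo over vehicle (x axis) for each gene (y axis) in WT libraries (red) and in libraries labelled Pear1-/- (blue), with 95% confidence intervals from edgeR, none for Bpifa1. Sftpc is at -1.22 in WT and at -3.45 under the Pear1-/- label, Scgb3a2 at -2.03 and -2.40, and Epcam lies on opposite sides of 0.

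Set directly against WT bleo, the libraries labelled Pear1-/- bleo held less of each gene. This comparison shares its libraries with those above, so its values are given beside them and not as separate evidence. Sftpc was at 722, 718 and 738 CPM in WT bleo and at 179, 178 and 186 CPM in Pear1-/- bleo, a log2 fold change of -2.00 (SE 0.084, adjusted p = 1.34e-10). The other alveolar genes had log2 fold changes of -1.76 for Lamp3 (adjusted p = 2.92e-07), -1.74 for Sftpa1 (6.98e-10), -1.63 for Sftpd (2.56e-09) and -1.46 for Sftpb (1.36e-08). The airway genes differed by -1.22 for Scgb3a1 (0.000118), -0.69 for Scgb1a1 (0.000715) and -0.51 for Scgb3a2 (0.000891). The Scgb1a1 libraries were at 592, 608 and 614 CPM against 381, 374 and 370 CPM, so the gap was several times the spread within either group.

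Epcam differed by -0.30 (SE 0.110, adjusted p = 0.0350), and this call was lost when any 1 of the 6 bleo libraries was left out (adjusted p = 0.0802 to 0.151), with no filter on low counts (0.123), with DESeq2's Wald test (0.0750) and with limma (0.0534), which makes 9 of 13 other settings. All 9 genes tested were lower, where 46.0% of all genes tested passed (23.9% lower), and 6 of the 9 differed by more than 2-fold, against 8.76% of all genes tested. The groups did not overlap for any of these 9 genes, as for 62.7% of all genes tested. Pdgfra was higher (log2 fold change 0.80, adjusted p = 1.47e-07), 15 of the 19 leukocyte genes were lower, and a list of 12 mesenchymal genes summed to 32820 to 33793 CPM against 12669 to 12781 CPM in WT bleo. Its most abundant gene, the collagen gene Col1a1, averaged 3648, 3537, 4822 and 15996 CPM in the 4 groups. CPM are shares of a library, and the part of these changes in the epithelial values was not tested.

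Without bleo the 2 genotypes as labelled were closer. Bpifa1 is left aside here, since its counts in the vehicle libraries alone did not pass the filter. Of the 9 other genes 1 passed, where 4.50% of all genes tested did so (0.855% higher). This was Epcam, at 16.0, 19.9 and 14.6 CPM in WT vehicle and 22.2, 25.9 and 24.4 CPM in Pear1-/- vehicle, with a log2 fold change of 0.51 (SE 0.112, adjusted p = 0.0388). The call was lost in 6 of 13 other settings. Scgb1a1 had a log2 fold change of 0.42 (95% confidence interval 0.13 to 0.71, adjusted p = 0.0675), and the 4 surfactant protein genes lay between 0.19 and 0.23 (adjusted p = 0.0777 to 0.169). Libraries of the 2 groups overlapped for 5 of the 9 genes, and 19.1% of all genes tested did not overlap. Much of the spread came from 1 library: WT vehicle replicate 2, at 3820 CPM for Scgb1a1, lay among the libraries labelled Pear1-/- vehicle (3538 to 4135 CPM) and away from replicates 1 and 3 (2387 and 2333 CPM). Without it, 6 of the 9 genes passed. Their log2 fold changes were 0.77 for Scgb1a1, 0.74 for Epcam and 0.34 to 0.41 for the 4 surfactant protein genes. A large share of all genes tested (11258 of 20405) passed as well, 25.5% higher and 29.7% lower. In the same fit 16 of 19 leukocyte genes and 7 of 12 endothelial genes were higher, with 0 lower in either list.

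Ratios of counts within a library do not depend on its depth or scaling. The libraries held 96.5 to 105 Sftpc counts per Epcam count in WT vehicle, 72.8 to 89.5 in Pear1-/- vehicle, 31.5 to 34.8 in WT bleo and 9.74 to 10.7 in Pear1-/- bleo, and the 4 ranges do not overlap. Scgb1a1 counts per Epcam count were 149 to 192 and 145 to 170 in the vehicle groups, 26.7 to 29.0 in WT bleo and 20.4 to 22.7 in Pear1-/- bleo. So Sftpc and Scgb1a1 fell against Epcam in both bleo groups. Epcam itself was higher in WT bleo than in WT vehicle (log2 fold change 0.36), and which cells held its transcripts was not tested. The balance of alveolar to airway transcripts moved differently: Sftpc counts per Scgb1a1 count were 0.503 to 0.684 in WT vehicle, 0.502 to 0.528 in Pear1-/- vehicle, 1.18 to 1.22 in WT bleo and 0.471 to 0.502 in Pear1-/- bleo. WT bleo was the group in which this ratio rose, and in Pear1-/- bleo it was at the lower end of the vehicle ranges or below it.

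Within the surfactant proteins the mix shifted as well. Sftpb counts per 100 Sftpc counts were 21.0 to 21.8 and 20.4 to 22.1 in the vehicle groups, 29.0 to 30.2 in WT bleo and 41.1 to 45.4 in Pear1-/- bleo. Sftpd counts per 100 Sftpc counts were 4.45 to 4.80, 4.43 to 4.60, 6.46 to 7.07 and 8.38 to 9.45 in the same order. Both rose with bleo and were highest in the 3 Pear1-/- bleo libraries. These ratios are given without a test. The 10 genes together made up 0.530% to 0.662% of the counts in WT vehicle, 0.627% to 0.708% in Pear1-/- vehicle, 0.184% to 0.187% in WT bleo and 0.0730% to 0.0735% in Pear1-/- bleo.

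**Figure D3:**
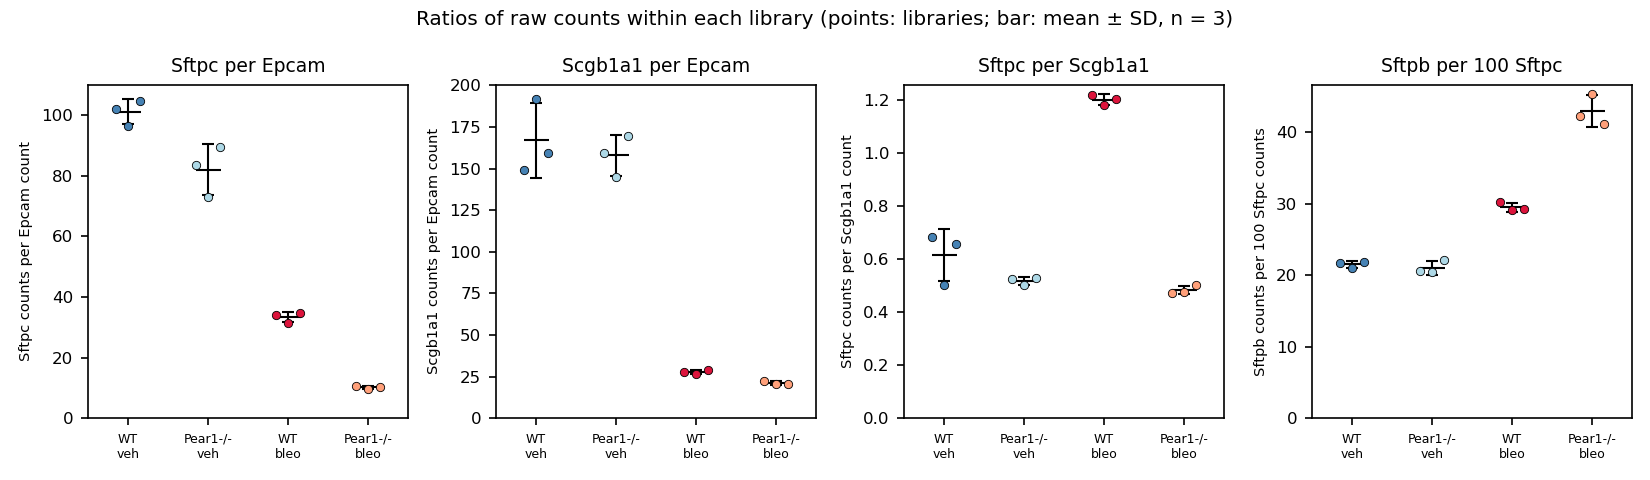
Ratios of raw counts within each library (y axes from 0, counts of the first gene per count, or per 100 counts, of the second) by group; points are libraries and the bar is the mean ± SD (n = 3). Sftpc per Scgb1a1 is high in WT bleo (1.18 to 1.22), and Sftpb per 100 Sftpc rises to 41.1 to 45.4 in Pear1-/- bleo.

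Bpifa1 was the one gene of the 10 that was most abundant in WT bleo. It encodes a secreted protein of the upper airway and its glands that binds bacterial lipopolysaccharide. It was counted 34, 5 and 23 times in the WT vehicle libraries, 4, 6 and 7 times in Pear1-/- vehicle, 572, 513 and 465 times in WT bleo and 38, 26 and 25 times in Pear1-/- bleo. This was 4.65, 0.569 and 2.98 CPM, then 0.425, 0.624 and 0.858 CPM, then 59.5, 59.3 and 53.6 CPM, and last 3.81, 2.52 and 2.67 CPM. The WT bleo libraries stood far above all others, and the 3 Pear1-/- bleo libraries were within the range of WT vehicle. The log2 fold changes were 4.45 for WT bleo over WT vehicle, 2.24 for Pear1-/- bleo over Pear1-/- vehicle and -4.25 for Pear1-/- bleo against WT bleo, given without a test since the last of them chose the gene. The first was 5.07 without WT vehicle replicate 1, 3.99 without replicate 2 and 4.55 without replicate 3, at WT vehicle counts of 5 to 34. Between the vehicle groups the log2 fold change was -2.04 at counts of 34 or fewer, given without a test since the gene passed the filter through the bleo libraries. It ranged from -2.50 without WT vehicle replicate 2 to -1.43 without WT vehicle replicate 1 when 1 vehicle library was left out.

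Other genes of airway secretory and gland cells are given beside it without a test, all named after their values were known. Bpifb1, a long relative of Bpifa1, was counted 13 to 30 times in WT vehicle, 6 to 19 in Pear1-/- vehicle, 10 to 17 in WT bleo and 6 to 11 in Pear1-/- bleo. Bpifb5, of the same family, was counted 13 to 19 and 6 to 7 times in the vehicle groups and 0 to 1 and 1 to 2 times in the bleo groups. Muc5b, the main gel-forming mucin of the airways, was counted 36 to 71 and 38 to 45 times in the vehicle groups and 7 to 18 and 1 to 3 times in the bleo groups. Reg3g, a secreted lectin of airway epithelium, was counted 15 to 22 and 15 to 25 times in the vehicle groups, 111 to 122 times in WT bleo and 11 to 12 times in Pear1-/- bleo. Muc5ac was counted 12 to 41 and 1 to 3 times in the vehicle groups, 4 to 6 times in WT bleo and 0 times in Pear1-/- bleo. Bpifb2 and Bpifb9b were counted at most 6 and 4 times in any library. So Reg3g, like Bpifa1, was highest in WT bleo, and the other genes named here were not.

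The genes whose pattern over the 12 libraries was most like that of a given gene were taken by the smallest root mean square difference of log2(CPM + 0.5) after centring, among 14270 genes with sufficient counts. For Sftpc these were Sftpa1 (difference 0.13), Pigz, Cytl1, Cd96 and Cxcl15 (0.25 for each of the last 2). For Lamp3 they were Cxcl15 (0.18), Slc26a9, Slc34a2, Pigz and Abca8b (0.24). Slc34a2 is the phosphate transporter of type 2 cells and Slc26a9 a chloride transporter of airway epithelium, while Abca8b is a lipid transporter. Of 14 genes of mature dendritic cells, which make Lamp3 too, 13 were tested, and 7 were higher and 2 lower in WT bleo (9 and 2 without WT vehicle replicate 2), where 31.4% of all genes tested were higher and 36.6% lower. In Pear1-/- bleo against Pear1-/- vehicle 8 of the 13 were higher and 3 lower, beside 28.9% and 33.4%. Cd83, a surface protein of mature dendritic cells, averaged 813, 742, 2082 and 887 CPM in the 4 groups. It rose in WT bleo (log2 fold change 1.36), and, like Lamp3, it was lower in Pear1-/- bleo than in WT bleo (-1.23, adjusted p = 3.32e-10) with a negative interaction (-1.10, 1.36e-07). Ccr7, the chemokine receptor of migrating dendritic cells, averaged 283, 326, 298 and 223 CPM in the 4 groups and, like Lamp3, was lower in Pear1-/- bleo than in its vehicle (log2 fold change -0.55, adjusted p = 5.81e-05) and than in WT bleo (-0.42, 0.000951). Tmem123 averaged 219, 250, 363 and 412 CPM and Socs2 106, 112, 77.9 and 110 CPM. Unlike Lamp3, Socs2 was higher in Pear1-/- bleo than in WT bleo (0.50, adjusted p = 0.000214) with a positive interaction (0.41, 0.0148), and Tmem123 passed neither test. Over the 13 genes the interaction was positive for 4 and negative for 4 (4 and 5 without WT vehicle replicate 2). Of all genes tested 37.0% passed the interaction test, 19.1% in the negative direction (26.0% without that library). The part of dendritic cells in the Lamp3 values was not tested.

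For Scgb1a1 the nearest genes were Gzma (0.06), Gm11816, Meg3, Pi16 and Efemp1 (0.20), 3 of which are known from cells other than club cells. Gzma, a protease of natural killer and cytotoxic T cells, averaged 89.3, 122, 18.8 and 11.5 CPM in the 4 groups, and Pi16, a marker of adventitial fibroblasts, 352, 474, 97.5 and 54.6 CPM. Efemp1, a matrix protein of fibroblasts, averaged 532, 568, 107 and 61.5 CPM. For Bpifa1 they were Ms4a14 (0.59), Slc13a3, Gdf3, Mmp12 and Hpgds (0.91), all less close than the neighbours of the other 3 genes. Mmp12, the macrophage elastase, averaged 124, 90.2, 1798 and 414 CPM, and Ms4a14 3.71, 1.42, 44.6 and 6.14 CPM. Likeness over 4 groups of 3 is a description, with 12 libraries behind each value. Among the 10 genes themselves the closest pair was Sftpb and Sftpd (0.07), and Bpifa1 was farthest from every other gene (2.21 or more).

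**Figure D4:**
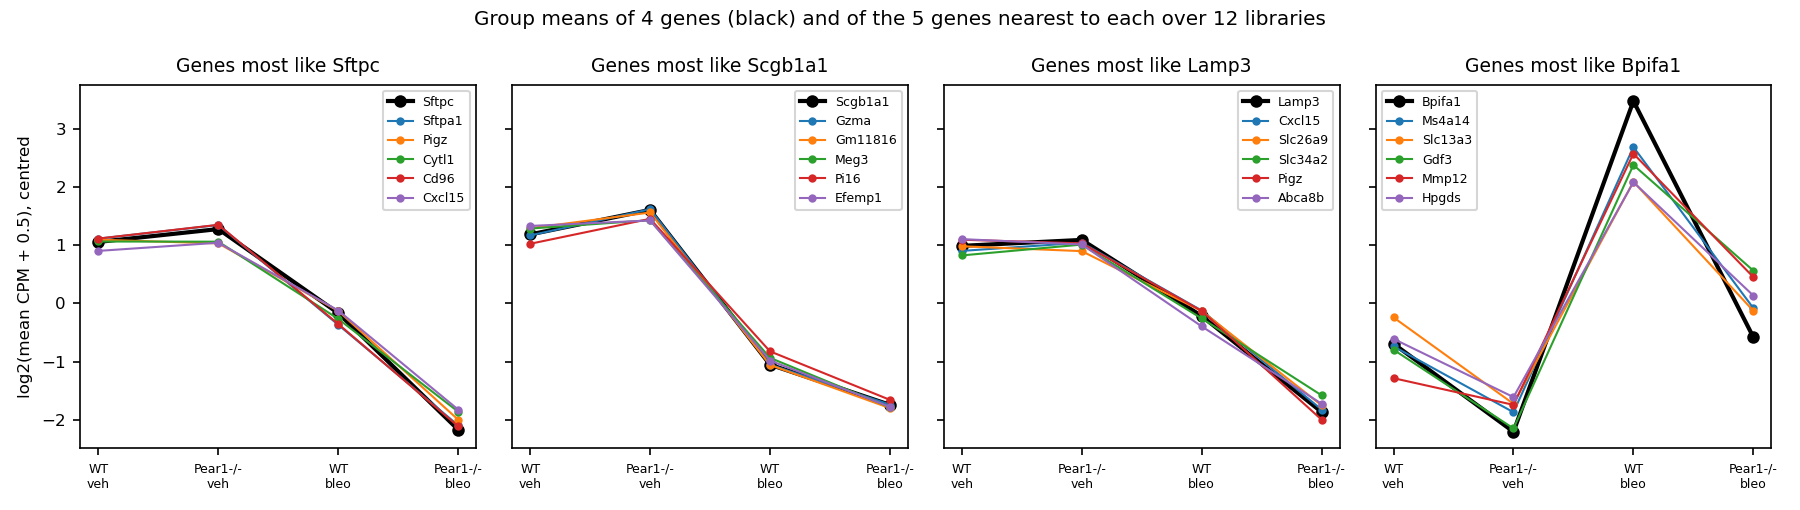
Group means of Sftpc, Scgb1a1, Lamp3 and Bpifa1 (black) and of the 5 genes nearest to each (colours), as log2(mean CPM + 0.5) centred on the mean of the 4 groups (y axis), by group (x axis). The first 3 genes fall from vehicle to bleo and lie lowest in Pear1-/- bleo, while Bpifa1 and its neighbours peak in WT bleo.

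Wider lists of epithelial genes show how far the pattern reached. They exclude the 10 genes above. Their counts stand beside the shares of all genes tested that passed, which were 31.4% higher and 36.6% lower in WT bleo, 28.9% higher and 33.4% lower in Pear1-/- bleo against its vehicle, and 22.1% higher and 23.9% lower in Pear1-/- bleo against WT bleo. Of 14 genes of surfactant processing and lipid handling, 3 were higher and 7 lower in WT bleo than in WT vehicle, 2 higher and 10 lower in Pear1-/- bleo than in Pear1-/- vehicle, and 0 higher and 10 lower in Pear1-/- bleo than in WT bleo. The WT counts are near the shares over all genes tested (31.4% higher and 36.6% lower). Its 4 most abundant genes did not move together: Scd1, a fatty acid desaturase, averaged 175, 174, 154 and 70.6 CPM in the 4 groups, whereas Ctsh, a protease that cuts pro-Sftpc and is also made by macrophages, averaged 110, 119, 674 and 322 CPM. Napsa, the second pro-surfactant protease, averaged 56.3, 67.7, 128 and 114 CPM, and Chil1, a chitinase-like protein, 86.1, 89.7, 50.9 and 57.0 CPM. In Pear1-/- bleo against WT bleo Scd1 and Ctsh fell (log2 fold change -1.12, adjusted p = 9.89e-09, and -1.07, 2.19e-08), and Napsa (-0.17) and Chil1 (0.16) did not pass the test. The median of the list was -0.13 in WT, -1.24 in libraries labelled Pear1-/- and -1.20 between the bleo groups, beside -0.07, -0.05 and -0.01 over all genes tested.

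Of 11 epithelial and lung lineage transcription factors tested, 8 were lower and 2 higher with bleo in each genotype as labelled, and 6 were lower and 2 higher in Pear1-/- bleo than in WT bleo. Nkx2-1, the lung lineage factor that drives surfactant genes, averaged 11.4 ± 0.424, 9.71 ± 1.24, 5.29 ± 0.598 and 3.45 ± 0.606 CPM in the 4 groups. It fell in both genotypes (log2 fold change -1.10, adjusted p = 2.47e-05, and -1.50, 2.36e-06), and its interaction did not pass (-0.39, adjusted p = 0.215). Ehf, an epithelial ETS factor, averaged 9.21, 9.57, 4.86 and 1.11 CPM, with an interaction of -2.17 (adjusted p = 4.57e-05). Cebpa, which macrophages express too, rose in both (3.47 and 1.92), and Etv5 rose by less (0.58 and 0.71).

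Of 14 club cell genes, 12 were lower and 1 higher with bleo in each genotype as labelled, where 36.6% (WT) and 33.4% of all genes tested were lower. Cyp2f2, the cytochrome of club cells, averaged 84.0, 123, 29.1 and 9.45 CPM and Cbr2, a carbonyl reductase, 398, 509, 76.8 and 32.1 CPM. Both had a negative interaction (-2.16, adjusted p = 3.23e-05, and -1.61, 1.86e-05). Aldh1a1, a retinaldehyde dehydrogenase, averaged 494, 453, 123 and 162 CPM, with an interaction in the other direction (0.53, adjusted p = 0.000256). Between the bleo groups 3 club cell genes were higher and 4 lower in Pear1-/- bleo, Hp (haptoglobin) being higher (0.95, adjusted p = 0.000163).

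Of 14 alveolar type 1 cell genes, 1 was higher and 10 lower in WT bleo, 1 higher and 8 lower in Pear1-/- bleo against its vehicle, and 5 higher and 6 lower between the bleo groups. The shares of all genes tested that were lower were 36.6%, 33.4% and 23.9% in these comparisons. Ager, a receptor dense on type 1 cells, averaged 78.5, 63.7, 65.7 and 29.6 CPM and was lower in Pear1-/- bleo than in WT bleo (log2 fold change -1.15, adjusted p = 2.74e-07). Sec14l3 was lower as well (-1.14, 6.43e-07), while Emp2 (0.70, 1.27e-06) and Pdpn (0.40, 0.000237), which fibroblasts also express, were higher. The list as a whole thus held no single direction between the bleo groups. The plot of list counts gives the other lists.

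Without WT vehicle replicate 2 the lists held similar counts in WT bleo. Then 5 of the 14 surfactant processing genes were higher and 7 lower, 2 of 12 transcription factors higher and 9 lower, 1 of the 14 club cell genes higher and 13 lower, and 1 of the 14 type 1 cell genes higher and 10 lower. Of all 20405 genes tested in that fit, 31.7% were higher and 44.7% lower. The interactions of Ehf (-2.27), Cyp2f2 (-2.57), Cbr2 (-1.93) and Aldh1a1 (0.46) passed the test again, and that of Nkx2-1 did not (-0.49, adjusted p = 0.115).

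**Figure D5:**
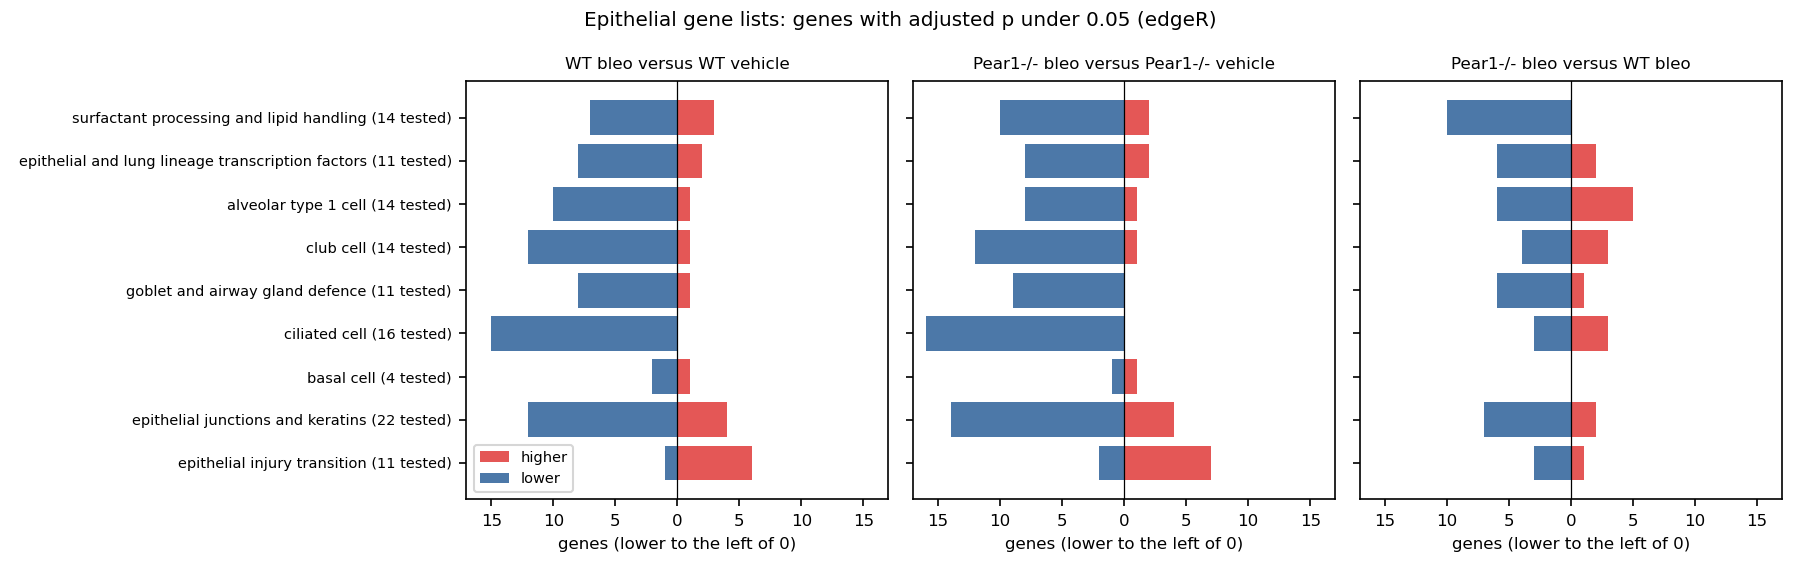
Number of genes of each list that passed the test (adjusted p under 0.05, edgeR), higher to the right of 0 (red) and lower to the left (blue), in 3 comparisons; the number tested is beside each name. In Pear1-/- bleo against WT bleo the surfactant processing list has 0 genes higher and 10 lower, whereas the alveolar type 1 list has 5 higher and 6 lower.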

How the data were processed

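Pdgfra+ (Cd140a+) cells were sorted from mouse lung, and full-length cDNA came from the SMART-Seq v4 kit. Per the labels and the study's methods, reads were aligned to GRCm38 (mm10) with HISAT2 version 2.1; the program that counted reads is not given in the sources used here, nor whether strand was used. The authors deposited raw counts for 40760 genes in 12 libraries and a second table of normalized signal, which in every library equals the counts divided by the DESeq2 size factor (100% of genes had the same ratio). The counts were used for all results and the normalized signal as a check of levels.

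Library sizes were scaled by TMM, and CPM are on that scale. Genes were kept by filterByExpr (17418 genes). edgeR 4.0.16 (R 4.3.3) fitted 1 mean per group over all 12 libraries with glmQLFit, and glmQLFTest gave two-sided p-values, adjusted over all genes tested (Benjamini-Hochberg). A gene passed the test at an adjusted p under 0.05; a fold change above 2 was the study's further criterion. DESeq2 1.42.0, limma 3.58.1 on VST values (the study's test), the 2 groups alone, a replicate block, no filter, DESeq2 size factors and leaving out each library were alternatives. The script was tested on simulated data.

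A floor of 3 counts per library was 0.291 to 0.410 CPM and covers counting error only. Lists were described by counts; named were all 10 genes, up to 4 genes of highest mean CPM in each list, and the 5 genes nearest to Sftpc, Scgb1a1, Bpifa1 and Lamp3, by a fixed rule. The genes and lists were chosen with earlier results of these data known. Of 40760 gene identifiers 40394 had a length in GENCODE M21. Motifs were searched in RefSeq promoters (GRCm38.p6).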

Additional observations from a re-analysis of the deposited data

Results flagged for a closer look

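The bleo effect differed between the genotypes as labelled, by the interaction term of the edgeR fit, for all 9 genes tested. The difference in log2 fold change was -2.22 for Sftpc (adjusted p = 7.40e-09), -1.97 for Sftpa1 (2.12e-08), -1.86 for Lamp3 (3.52e-06), -1.82 for Sftpd (6.94e-08) and -1.65 for Sftpb (3.95e-07). It was -1.11 for Scgb1a1 (0.000391), -0.92 for Scgb3a1 (0.0110), -0.82 for Epcam (0.000913) and -0.37 for Scgb3a2 (0.0366). Over the other settings the adjusted p stayed under 0.05 for 8 of the 9, the exception being Scgb3a2 (0.00973 to 0.131). In the same test 37.0% of all genes tested passed. No sample was compared with the rest of its group by Dixon's test, which was not run on groups of 3 libraries.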

How the results depend on the processing

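Of 642 tested fold changes of the 10 genes under other settings, 603 kept their direction and their side of the threshold, 24 lost a call and 15 gained one. Of 57 for Bpifa1 without a test, 54 moved by less than 1 SD between libraries and 3 by more, those on limma's VST scale (3.16, 0.73 and -3.02 for its bleo contrasts). The unstable comparison was Pear1-/- vehicle versus WT vehicle, where 1 gene passed. Bpifa1 is counted over the settings of this comparison and made 4 of the 15 gained calls. It passed the filter through the bleo libraries, so its calls between the vehicle groups carry no weight as tests. There 6 genes passed with no filter on low counts, 3 with DESeq2's Wald test, 3 without immunoglobulin genes (chosen after seeing the data) and 0 in a fit of the 2 groups alone, in which 0 of all genes passed edgeR's test at all and 3091 had an unadjusted p under 0.05. Leaving out 1 library gave 0 to 7 genes, 7 without WT vehicle replicate 2 (6 with Bpifa1 left aside) and 0 without any of the other 5. Over all genes the count past 2-fold in that comparison was 411, and 4939 without WT vehicle replicate 2, 2990 with no filter, 658 with DESeq2, 665 without immunoglobulin genes, 18 with limma and 0 without any other vehicle library (2955 to 5868 genes then had an unadjusted p under 0.05). Limma gave 2791, 1726, 748 and 1102 genes past 2-fold for WT bleo, Pear1-/- bleo, between the bleo groups and the interaction, against 5910, 4847, 2617 and 2729. For WT bleo the count was 13669 with no filter and 9192 without WT vehicle replicate 2, for Pear1-/- bleo 8019 with no filter, and for the interaction 4468 without WT vehicle replicate 2. With no filter the median gene shifted by 0.13 in WT bleo against WT vehicle. Replicate numbers did not pair libraries (correlations of same-numbered libraries from -0.161 to 0.0997). With a replicate block 9, 9, 9, 1 and 8 genes passed in WT bleo, Pear1-/- bleo, between the bleo groups, between the vehicle groups and in the interaction, where Scgb3a2 had an adjusted p of 0.0507. The cause of these changes was not tested. On the deposited normalized values 29 of 30 levels moved by less than 1 SD. Few counts limit Bpifa1 outside WT bleo and Lamp3 and Scgb3a1 in Pear1-/- bleo.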

Other observations

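Ciliated cells beat mucus out of the airways. Of 16 of their genes tested, 0 were higher and 15 lower in WT bleo (0 and 16 of 17 without WT vehicle replicate 2) and 16 lower in Pear1-/- bleo against its vehicle (36.6% and 33.4% of all genes tested were lower), with medians of -2.63 and -2.28 on the log2 scale. Between the bleo groups 3 were higher and 3 lower (median -0.19), beside 22.1% and 23.9% of all genes tested. The interaction passed for 4 in the positive and 3 in the negative direction (4 and 5 of 17 without WT vehicle replicate 2). It passed for 37.0% of all genes tested, 19.1% in the negative direction (26.0% without that library). Tppp3, a tubulin-binding protein, averaged 146 ± 11.7, 154 ± 18.5, 65.9 ± 2.44 and 57.9 ± 1.87 CPM in the 4 groups, and Cfap43, of the axoneme, 53.3, 63.2, 35.0 and 36.8 CPM. Neither passed the test between the bleo groups (adjusted p = 0.103 and 0.607). The regulatory factors Rfx3 and Rfx2 averaged 21.3, 17.6, 16.3 and 14.3 CPM and 16.1, 15.5, 6.17 and 3.24 CPM, and Rfx2 was lower in Pear1-/- bleo than in WT bleo (log2 fold change -0.93, adjusted p = 0.000318).

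Of 11 genes linked to an injury-associated epithelial state, 6 were higher and 1 lower in WT bleo (8 and 1 without WT vehicle replicate 2), and 7 higher and 2 lower in Pear1-/- bleo against its vehicle, where 31.4% and 28.9% of all genes tested were higher. Lgals3, which macrophages also make in quantity, averaged 179, 170, 1024 and 618 CPM, and Cdkn1a, a cell cycle inhibitor, 181, 201, 419 and 408 CPM. Clu averaged 98.6, 155, 110 and 121 CPM and did not pass in WT bleo (log2 fold change 0.16, adjusted p = 0.490), though it did without WT vehicle replicate 2 (0.64, 3.74e-10), and Tnip3 averaged 58.3, 39.7, 139 and 79.4 CPM. Of 22 genes of epithelial junctions and keratins, 12 fell and 4 rose in WT bleo (11 and 4 without WT vehicle replicate 2). Of all genes tested, 36.6% fell and 31.4% rose (44.7% and 31.7% without that library). Spint1, a serine protease inhibitor, averaged 13.1, 14.0, 110 and 62.5 CPM, and Spint2 57.6, 62.3, 29.9 and 40.7 CPM. Krt8 averaged 35.0, 39.4, 18.7 and 19.5 CPM and fell in both genotypes as labelled, while Cdh1 averaged 17.5, 18.0, 32.7 and 43.1 CPM and rose in both. Basal cell genes were scarce, and 4 of 8 were tested. In WT bleo 1 was higher and 2 lower, with or without WT vehicle replicate 2, beside 31.4% and 36.6% of all genes tested. Between the bleo groups 0 of the 4 differed by edgeR, where 46.0% of all genes tested passed.

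Of 11 goblet and airway gland genes tested, 1 was higher and 8 lower in WT bleo (1 and 11 of 13 without WT vehicle replicate 2). The higher gene was Reg3g, described above by its counts. In Pear1-/- bleo against its vehicle 0 were higher and 9 lower. Of all genes tested, 36.6% and 33.4% were lower in these comparisons (44.7% in WT bleo without WT vehicle replicate 2). Lcn2, an iron-scavenging protein that neutrophils make too, had a log2 fold change of -0.66 in WT bleo (adjusted p = 0.0537), which turned to 0.11 (0.249) without WT vehicle replicate 2, and -0.86 in Pear1-/- bleo against its vehicle (0.0132). Ltf, lactoferrin, averaged 55.1, 67.0, 7.18 and 5.62 CPM. Wfdc2 averaged 45.1, 52.2, 24.2 and 10.7 CPM and Msln, a mesothelial surface protein, 14.8, 7.77, 5.89 and 9.36 CPM.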
